A study of Mus musculus with 6 samples.

Results

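Capture Hi-C contact maps of limb buds that lacked a domain boundary at the Sox9/Kcnj locus were compared with those of wild type limb buds. The assay joins fragments of fixed chromatin that touch, pulls down those of the locus with designed probes and sequences both ends, so that every read pair reports 1 contact between bins of 10 kb. The libraries compared were WT and deltaBor, 2 of the 6 mouse genotypes mapped in the series. Dup-S and the pair Dup-L and Dup-LdeltaBor are used at the end for comparison. WT carried no engineered allele per the labels, and deltaBor carried the deletion of the boundary. Both came from mouse limb buds at E12.5, which the series describes as developing distal limbs. Each genotype was 1 library, so no value has a replicate spread and no difference between genotypes was tested. The number of animals pooled, whether the deletion was on 1 or both chromosomes and the mouse strain are not given in the labels used here. A contact map holds no RNA levels, so the tissue could not be checked against marker genes.

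Mammalian chromosomes are folded into topologically associating domains, stretches in which DNA contacts itself more often than it contacts the neighbouring stretch. The limits between domains, called boundaries, are often bound by the protein CTCF, at which the ring complex cohesin pauses as it extrudes chromatin loops. Boundaries are known for limiting which enhancers a promoter meets. At this locus they are of interest because Sox9, which encodes a transcription factor needed to form cartilage and testis, is controlled by enhancers spread over a large gene desert. Kcnj2 and Kcnj16 encode inwardly rectifying potassium channels. In the GRCm38 gene table Kcnj16 and Kcnj2 lie on the centromeric side of Sox9, with Map2k6 before them and Gm11677 between Kcnj2 and Sox9. Their positions in mm9, the build of the maps, were not used here, so the values below belong to stretches of chromosome 11 and not to promoters.

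The maps ran from 109010001 to 114880000 on chromosome 11 of mm9, in 587 bins. They were divided into 4 regions and a left-out stretch of 3 bins, 111380001 to 111410000, which holds the deleted boundary. The stretch from 110200001 to 111380000 (1180 kb, 118 bins) is called the Kcnj-side domain. The stretch from 111410001 to 113040000 (1630 kb, 163 bins) is called the Sox9-side domain. The centromeric flank, 109010001 to 110200000, and the telomeric flank, 113040001 to 114880000, served for scaling. The WT library held 7051882 contacts and the deltaBor library 6337918, and 96.1% and 94.2% of the 172578 bin pairs had at least 1 contact. Contacts between bins at least 2 bins apart numbered 4947152 in WT and 4114975 in deltaBor. The contacts that lay within 1 flank numbered 1699295 and 1366926, and deltaBor counts were multiplied by 1.24, the ratio of these sums. A fold below is the scaled deltaBor count over the WT count. Its range in parentheses is an exact (Clopper-Pearson) 95% interval given the 2 counts, which covers counting error only and leaves out the error of the scaling and the spread between animals.

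The missing sequence was visible in 1 bin and its neighbours. The bin 111390001 to 111400000 had 28639 contacts in WT and 0 in deltaBor, which allows up to 0.0120% of its WT level relative to the median bin. The bin before it, 111380001 to 111390000, went from 26088 to 3993 contacts, and kept 17.6% of its WT level relative to the median bin. The bin after it, 111400001 to 111410000, went from 26264 to 12211 and kept 53.3%. Contacts of a bin with itself gave the same order, at 1642 and 0, 2336 and 52, and 1809 and 427 in WT and deltaBor. The 3 bins beyond on either side kept between 90.2% and 101% of their contact sum. The deltaBor library thus matched its label, and no contact from a chromosome that keeps the bin 111390001 to 111400000 was detected in it. The 3 bins with the large losses were left out of every value below.

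Contacts between the domains were more frequent without the boundary. The bins of the Kcnj-side domain met those of the Sox9-side domain in 285955 contacts in WT and in 368797 in deltaBor. After scaling the latter was 458470, a 1.60-fold ratio (1.60 to 1.61), or 172515 more contacts. The mean per bin pair rose from 14.9 to 23.8. The ratio was 1.51 in the KR-normalised maps, in which the authors had given all bins equal sums. Among the 18659 bin pairs between the domains with at least 10 contacts over both libraries, 15785 (84.6%) were higher in deltaBor. The same count within the domains and flanks lay between 46.5% and 53.4%.

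Contacts within the domains differed far less. The Kcnj-side domain held 711903 internal contacts in WT and 590739 in deltaBor, a fold of 1.03 (1.03 to 1.04). The Sox9-side domain held 1471352 and 1202047, a fold of 1.02 (1.01 to 1.02). Both folds fell below 1 in the KR-normalised maps, at 0.946 and 0.972, so these values give no direction for the domains as wholes.

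As a share of all contacts within and between the domains, contacts between them rose from 11.6% (11.5 to 11.6) in WT to 17.1% (17.0 to 17.1) in deltaBor, a difference of 5.48 percentage points. This share needs no scaling. Seen from the Kcnj-side domain, 22.6% of its contacts went to the Sox9-side domain in WT and 31.4% in deltaBor, while 56.3% and 50.3% stayed inside it. Seen from the Sox9-side domain, 13.3% and 19.6% of contacts went to the Kcnj-side domain, and 68.6% and 63.9% stayed inside. The share with the opposite domain was higher in deltaBor in every bin of both domains, in 118 of 118 on the Kcnj side and in 163 of 163 on the Sox9 side. The median share over bins was 13.6% in WT and 20.1% in deltaBor on the Kcnj side, and 7.33% and 9.93% on the Sox9 side. The bins share the same 2 libraries and are not replicates. The largest difference was in the bin at 111410001, the first of the Sox9-side domain, whose share went from 19.1% to 43.6%. On the Kcnj side it was in the bin at 111310001, from 18.2% to 32.4%. The smallest differences were from 11.05% to 13.04% at 110600001 and from 7.25% to 8.56% at 112350001.

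The same change was read in squares of 100 kb by 100 kb, called blocks. Of 1596 blocks with at least 50 contacts in both libraries, 85 had a fold of 1.5 or more, which is 5.33% of them. Only 1 had a fold of 1/1.5 or less, or 0.0627%. The median fold of all blocks was 1.03, and 983 of the 1596 were above 1. All 176 blocks between the domains were above 1, with folds from 1.20 to 2.92 and a median of 1.48, and 83 of them (47.2%) reached 1.5. The 2 other blocks at or above 1.5 joined a domain to the far flank. One was 110100001 to 110200000 with 111510001 to 111610000, at 659 contacts in WT and 805 in deltaBor, a fold of 1.52 (1.37 to 1.69). The other was 111080001 to 111180000 with 113040001 to 113140000, at 973 and 1248, a fold of 1.59 (1.47 to 1.74). In both, the flank block was the one next to the other domain.

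**Figure D1:**
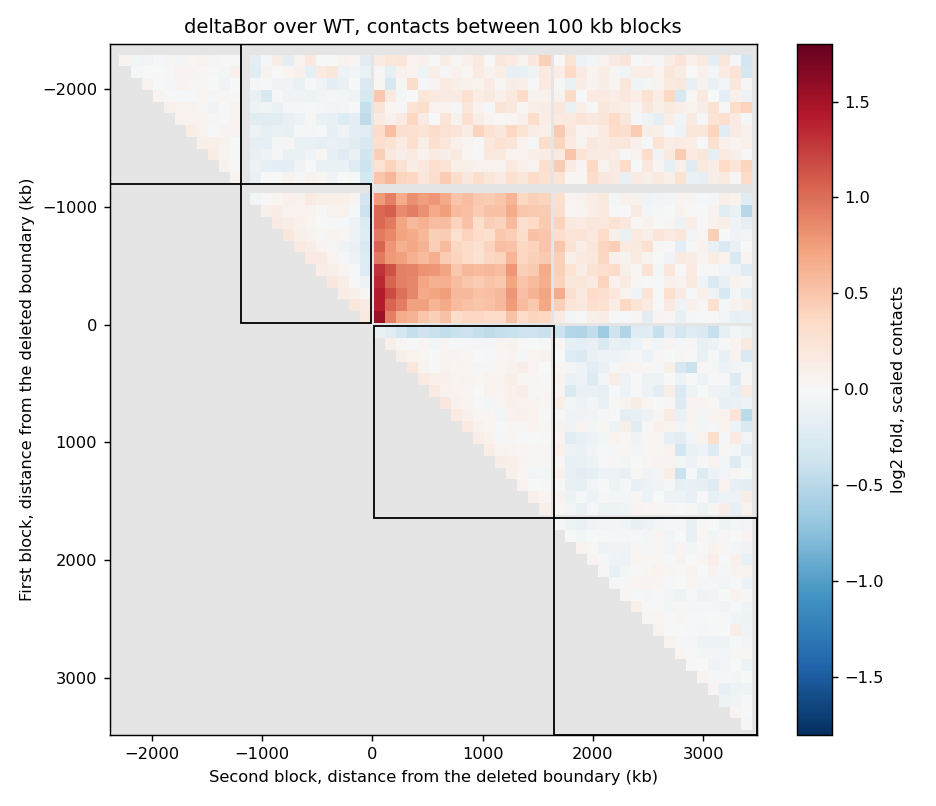
Fold of deltaBor over WT for pairs of 100 kb blocks, on a log2 colour scale, with both axes giving the start of a block in kb from the centre of the left-out bins; black squares outline the flanks and domains, and grey areas were not scored. The rectangle between the 2 domains is red throughout (folds of 1.20 to 2.92), and a blue row and column mark the 100 kb next to the deletion with their own side.

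The 5 blocks with the largest fold gain all had 111410001 to 111510000, the first 100 kb of the Sox9-side domain, as 1 partner. This stretch is called the Sox9-side inner strip below, and 111280001 to 111380000 the Kcnj-side inner strip. The block that joined the strips had 5105 contacts in WT and 12001 in deltaBor, or 14919 after scaling, a fold of 2.92 (2.83 to 3.02). The Sox9-side inner strip had 2470 contacts in WT and 5277 in deltaBor with 111180001 to 111280000, a fold of 2.66 (2.53 to 2.79). With 111080001 to 111180000 it had 2686 and 5742, also 2.66-fold (2.54 to 2.78). Further away, with 110980001 to 111080000, the counts were 2371 and 4882 (2.56-fold), and with 110880001 to 110980000 they were 2952 and 5851 (2.46-fold). A block near the outer end of the Kcnj-side domain, 110380001 to 110480000, was among the 5 largest gains in contacts. It had 3649 contacts with the Sox9-side inner strip in WT and 6027 in deltaBor, a fold of 2.05 (1.97 to 2.14). The gain of this strip therefore reached across nearly the whole Kcnj-side domain and was not limited to the junction of the domains.

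Contacts fall with distance along the chromosome, so the domains were also compared at equal distance. In 9 bands of 100 kb from 100 to 1000 kb, a pair of bins on opposite sides of the boundary had 0.234 to 0.282 times the contacts of a pair within a domain in WT. In deltaBor the ratio was 0.425 to 0.716. At 100 to 200 kb, pairs across had a mean of 39.2 contacts in WT and 102 scaled contacts in deltaBor, and pairs within had 139 and 142. At 900 to 1000 kb, pairs across had 14.9 and 24.6, and pairs within 61.2 and 57.7. The depletion across the boundary was thus smaller in deltaBor in all 9 bands, and in none did pairs across reach the level of pairs within. The part of the gap that had closed was 60.4% at 100 to 200 kb, 39.4% at 200 to 300 kb, and 23.0% to 35.5% from 300 to 1000 kb, with a median over bands of 33.6%. Distances are those of the reference. Shortening those across the deletion by 3 bins in deltaBor gave a median of 30.5%.

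**Figure D2:**
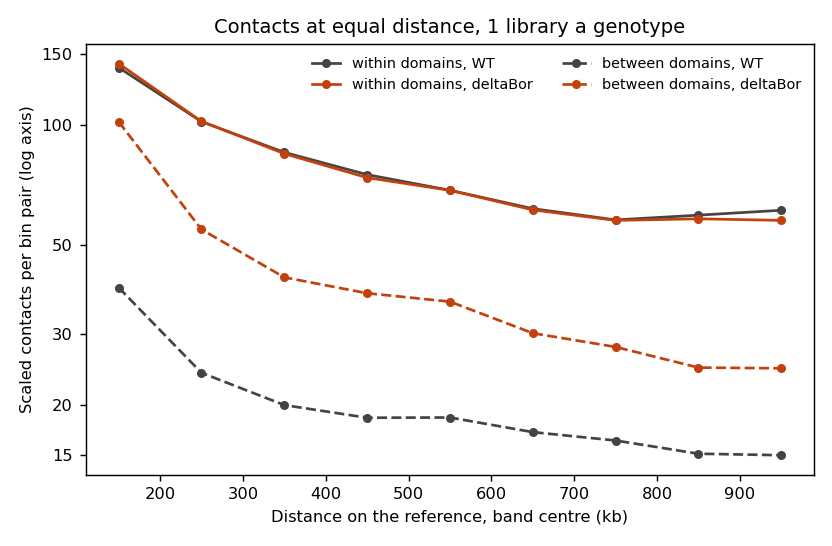
Mean contacts per pair of 10 kb bins against distance (kb, centres of 100 kb bands), with the contact axis on a log scale; solid lines are pairs within the domains, dashed lines pairs between them, grey WT and orange deltaBor after scaling, 1 library each. The solid lines lie nearly on each other, and the dashed deltaBor line lies above that of WT by 2.60-fold at 100 to 200 kb and by 1.65-fold at 900 to 1000 kb.

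The fold between the domains decreased with distance and stayed above 1 in all distance bands. It was 3.18 (3.01 to 3.36) below 100 kb, a band of only 21 bin pairs, 2.60 at 100 to 200 kb, 2.05 at 400 to 500 kb and 1.63 at 1000 to 1100 kb. At 2700 to 2800 kb, between the outer ends of the domains, it was 1.27 (1.17 to 1.37). Because distant pairs are numerous, they carried much of the added contact: pairs under 500 kb apart had 18.9% of the gain, those at 500 to 1000 kb 24.4%, those at 1000 to 1500 kb 27.1% and those further apart 29.6%.

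The gain also varied with position in the domain. Taken in steps of 100 kb away from the boundary, the folds of the Sox9-side domain with the whole Kcnj-side domain were 2.27, 1.95, 1.71 and 1.70, and then 1.34 to 1.59 up to the telomeric end. The first step, the inner strip, held 24.4% of the added contacts. Within the outer part, the step at 112610001 to 112710000 had a fold of 1.55, between neighbours at 1.41 and 1.34. On the Kcnj side the profile was flatter. The inner strip itself was at 1.61, the next steps at 1.73, 1.77, 1.70 and 1.74, and the outer steps between 1.47 and 1.66. The step at 110380001 to 110480000 had 1.66, the highest of the outer 6. The Kcnj-side inner strip held 13.4% of the gain.

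The inner strips had fewer contacts with their own side. The Sox9-side inner strip had 118723 contacts with its own domain in WT and 73413 in deltaBor, a fold of 0.769 (0.762 to 0.776). With the telomeric flank beyond, it had 19544 and 11730, a fold of 0.746. Its contacts with the Kcnj-side domain went from 33097 to 60486, a fold of 2.27 (2.24 to 2.30). The strip's own domain thus took 66.5% of its contacts in WT and 48.1% in deltaBor, and the Kcnj-side domain 18.5% and 39.6%. In deltaBor this strip still had more contacts with its own domain than with the other.

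The Kcnj-side inner strip changed in the same directions with its own side and with the opposite domain, by less. It had 87145 contacts with its own domain in WT and 62578 in deltaBor, a fold of 0.893. With the centromeric flank the fold was 0.807, and with the Sox9-side domain 1.61. The far flanks differed between the strips. The Kcnj-side inner strip had a fold of 1.01 (0.983 to 1.04) with the telomeric flank. The Sox9-side inner strip had 1.24 (1.20 to 1.28) with the centromeric flank. For the Kcnj-side inner strip, its own domain took 60.2% of its contacts in WT and 49.7% in deltaBor, and the Sox9-side domain 25.9% and 38.7%.

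The loss covered nearly all blocks of the strips. Of the 33 blocks that paired the Sox9-side inner strip with its own side, domain and flank together, 33 were below 1, with a median of 0.764 and a range of 0.635 to 0.963. Of the 21 for the Kcnj-side inner strip, 19 were below 1, with a median of 0.834 and a range of 0.725 to 1.11. The other 792 blocks with both partners on 1 side of the boundary had a median of 0.992, and 442 of them were below 1. Among the 20 lowest of the 1596 block folds of the whole map, 18 came from these 33 and 21 blocks. In the KR-normalised maps, 33 of 33 and 20 of 21 blocks were below 1. Bins have equal sums in those maps, so a larger share with the opposite domain leaves less for other partners. The KR values are therefore no separate check of the loss.

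The 4 blocks with the lowest folds all paired the Sox9-side inner strip with the telomeric flank. With 113440001 to 113540000 it had 2222 contacts in WT and 1135 in deltaBor, a fold of 0.635 (0.591 to 0.682). With 113240001 to 113340000 the fold was 0.684, with 113640001 to 113740000 it was 0.685, and with 113140001 to 113240000 it was 0.694. The next, 110380001 to 110480000 with 114740001 to 114840000, rested on 183 and 104 contacts, and its fold of 0.706 had a wide interval (0.550 to 0.904). In numbers of contacts the losses were larger nearer by. The largest, named after its values were seen, joined the block at 110380001 to 110480000, near the outer end of the Kcnj-side domain, to the Kcnj-side inner strip. It had 12039 contacts in WT and 7378 in deltaBor, a fold of 0.762 (0.740 to 0.784). The same outer block had gained 2.05-fold with the Sox9-side inner strip. The next largest losses, also named after their values were seen, were of the Sox9-side inner strip with 111710001 to 111810000 (9445 and 5661 contacts, 0.745-fold) and with 112010001 to 112110000 (8366 and 4942, 0.734-fold).

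**Figure D3:**
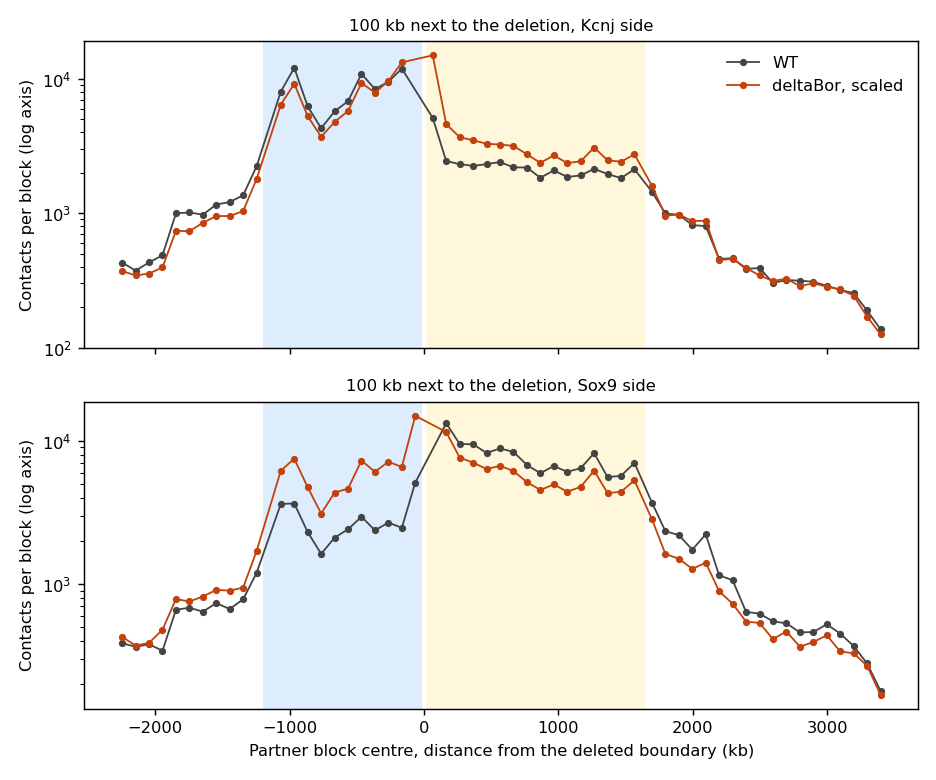
Contacts of the 100 kb next to the deletion on the Kcnj side (top) and on the Sox9 side (bottom) with each 100 kb block of the map, on a log axis, against the block's distance from the deleted boundary (kb); grey is WT, orange is deltaBor after scaling, blue shading is the Kcnj-side domain and yellow the Sox9-side domain. The orange line lies below the grey one on the strip's own side (median block folds of 0.834 and 0.764, with 19 of 21 and 33 of 33 blocks below 1) and above it in the opposite domain.

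The loss was also present at equal distance. Pairs of the Sox9-side inner strip with its domain had folds of 0.890 under 200 kb and of 0.744 to 0.770 in each 200 kb band from 200 to 1400 kb. All other pairs of that domain had folds of 1.01 to 1.06 in the same bands. Pairs of the Kcnj-side inner strip had a fold of 1.10 under 200 kb, where the other pairs of that domain had 1.07. From 200 kb on, its folds were 0.942, 0.832, 0.842, 0.802 and 0.743 in successive 200 kb bands. Those of the other pairs were 1.02, 1.01, 1.02, 1.02 and 0.949, the last from 36 bin pairs.

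Contacts between the ends of the domains differed in direction within and between domains. The outer and inner strips of the Kcnj-side domain, 1080 kb apart, had 4468 contacts in WT and 2815 in deltaBor, a fold of 0.783 (0.747 to 0.821). The inner and outer strips of the Sox9-side domain, 1530 kb apart, had 8106 and 4738, a fold of 0.727 (0.701 to 0.753). The outer Kcnj-side strip with the inner Sox9-side strip, 1210 kb apart, went from 2282 to 2837, a fold of 1.55 (1.46 to 1.63). The inner Kcnj-side strip with the outer Sox9-side strip, 1660 kb apart, went from 2250 to 2476, a fold of 1.37 (1.29 to 1.45). Between the outer strips, at 2740 kb, the counts were 1356 and 1418, a fold of 1.30 (1.21 to 1.40). In both domains, then, contact between its own ends was lower in deltaBor, and contact of each end with the ends of the other domain was higher.

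At the level of single bins, the loss was deepest beside the deletion, and on the Sox9 side it faded within about 100 kb. Contacts of the first Sox9-side bin, at 111410001, with bins of its own domain at least 300 kb away went from 8388 in WT to 3845 in deltaBor, a fold of 0.570 (0.548 to 0.592). The fold was 0.653 in the next bin, 0.760 at 111450001, 0.838 at 111490001 and 0.925 at 111500001. From 111510001 on it lay between 0.975 and 1.03. On the Kcnj side the bin at 111370001 went from 6312 to 3645, a fold of 0.718 (0.689 to 0.748), and the fold was 0.924 at 111280001. Beyond it the Kcnj side had no clear end of the loss: the fold lay between 0.890 and 0.947 in the next 7 bins, 111210001 to 111280000, and was 1.00, 0.927 and 1.03 in the 3 after those.

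The gain with the opposite domain followed another course. On the Sox9 side it was 2.15-fold to 2.34-fold in the first 9 bins and largest in the tenth, at 111500001, where 2903 contacts in WT became 6177, a fold of 2.65 (2.53 to 2.77). It was 2.51 in the bin after that and 1.74 at 111600001. On the Kcnj side the bin next to the deletion had the lowest gain, with 6113 and 6591 contacts and a fold of 1.34 (1.29 to 1.39). This bin already had the most contacts across the boundary in WT among the 20 bins on that side. The fold rose to 1.99 (1.87 to 2.12) at 111310001 and lay between 1.63 and 1.83 from 111300000 back to 111180001.

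**Figure D4:**
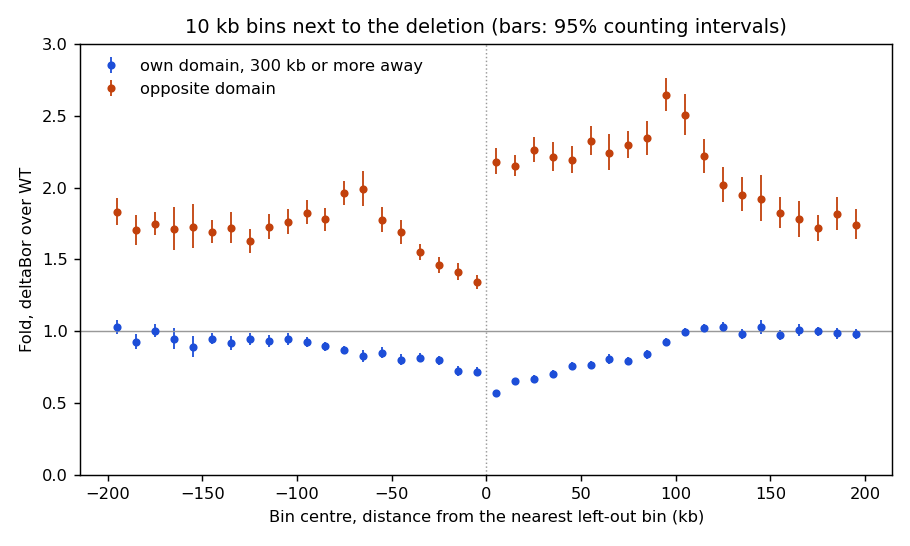
Fold of deltaBor over WT for each 10 kb bin up to 200 kb from the left-out bins, by distance from the nearest left-out bin (kb, negative on the Kcnj side); blue points are contacts with the bin's own domain at 300 kb or more, orange points contacts with the opposite domain, and bars are 95% counting intervals. Blue points are lowest beside the deletion (0.718 and 0.570), and the orange points peak at 1.99 on the Kcnj side and at 2.65 on the Sox9 side.

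Window scores summarised these changes along the map. The insulation score is the log2 of the contacts that pass over a bin within 500 kb, relative to the mean of all bins, and is low at a boundary. At the boundary it was -1.55 in WT and -0.52 in deltaBor, a difference of 1.03 (1.02 to 1.05). With windows of 200 kb it was -1.92 and -0.60. The score differed by more than 0.2 in a single stretch of 350 kb, from 111150001 to 111500000, which reached 230 kb to the centromeric and 90 kb to the telomeric side of the left-out bins. In the 452 scored bins outside it the difference lay between -0.13 and 0.19.

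A low point of insulation was still present in deltaBor, at another position. In WT the local minimum was at 111370001, with a score of -1.61 and a prominence (depth below its shoulders) of 2.19. In deltaBor the minimum was at 111500001, with a score of -0.66 and a prominence of 1.23. WT had a score of -0.85 in that bin, so the score there was not lower in deltaBor, while no minimum was called at 111370001. With a 200 kb window the bin at 111500001 had -0.73 in deltaBor and -0.65 in WT. With this 500 kb window on the raw maps, the minima at the outer limits of the domains were in the same bins in both libraries, at 110190001, with -1.34 in WT and -1.46 in deltaBor, and at 113030001. The telomeric one was at 113030001 with every window and map run. The centromeric one depended on them: it was at 110140001 in WT and 110190001 in deltaBor with a 300 kb window, and at 110350001 and 110190001 in the KR-normalised maps with a 500 kb window. A shallow minimum at 112650001, with scores of -0.08 in WT and -0.07 in deltaBor, passed the prominence of 0.3 asked of a minimum in WT only, and in both libraries with the 200 kb window.

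The directionality index is the difference between contacts to the telomeric and to the centromeric side within 500 kb, over their sum. In WT it changed sign at the boundary, from -0.385 in the Kcnj-side inner strip to 0.289 in the Sox9-side inner strip, a step of 0.674. In deltaBor the values were -0.121 and -0.080, a step of 0.041. The change of the step was -0.633. With 200 kb windows the step was 0.292 in WT and -0.200 in deltaBor, where the Kcnj-side strip was at 0.051 and the Sox9-side strip at -0.149, so the sign of the deltaBor step depended on the window. All 10 bins of the Sox9-side inner strip pointed to the telomeric side in WT, and 9 of them pointed to the centromeric side in deltaBor, the bin at 111410001 going from 0.51 to -0.18. The tenth, at 111500001, went from 0.23 to 0.06 without changing sign, and at 111510001 the index was 0.41 in WT and 0.29 in deltaBor. Of the 10 bins of the Kcnj-side inner strip, 10 pointed to the centromeric side in WT and 8 in deltaBor. With 500 kb windows on the raw maps, the Sox9-side bins of deltaBor thus turned to the telomeric side at 111500001, the bin of the insulation minimum and of the peak of gained contacts.

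**Figure D5:**
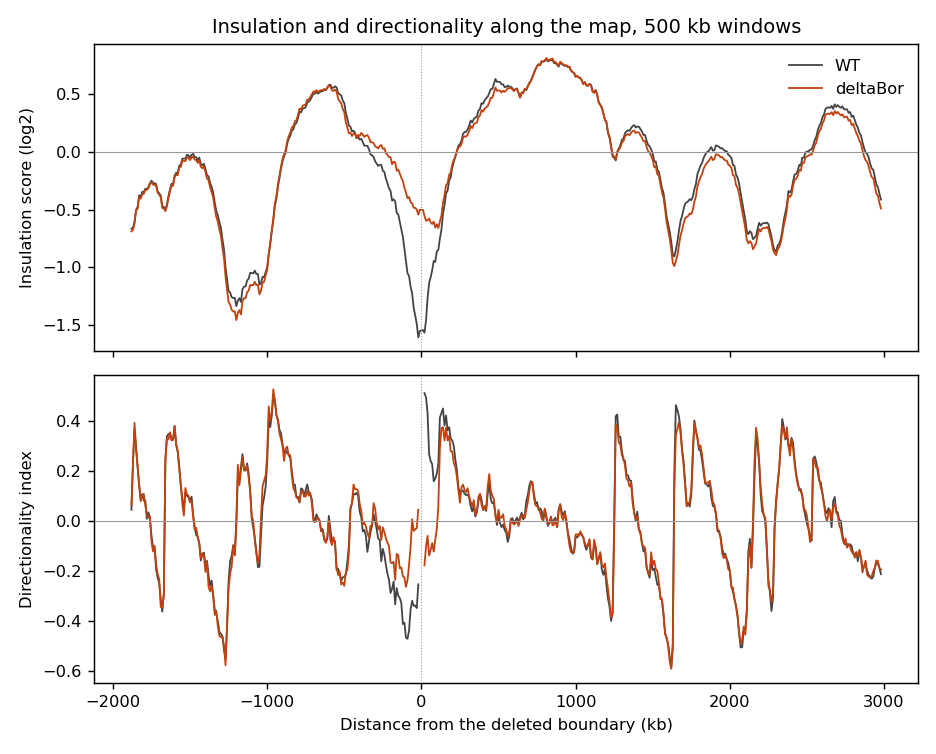
Insulation score (top, log2) and directionality index (bottom, from -1 to 1) in 500 kb windows against distance from the deleted boundary (kb); grey is WT, orange is deltaBor, and the dotted line marks the deletion. At the left-out bins the score is -1.55 in WT and -0.52 in deltaBor, the step in directionality falls from 0.674 to 0.041, and the minima at the outer limits of the domains lie in the same bins with this window.

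Contacts that involved the flanks changed by less. The Kcnj-side domain had a fold of 0.941 (0.934 to 0.948) with the adjoining centromeric flank and of 1.10 (1.09 to 1.11) with the telomeric flank. The Sox9-side domain had 0.951 (0.946 to 0.956) with the adjoining telomeric flank and 1.13 (1.12 to 1.14) with the centromeric flank. Contacts between the flanks, which neither domain enters, had a fold of 1.09 (1.07 to 1.10). When each distance was scaled by itself, the Kcnj-side domain with the telomeric flank was at 0.979. The Sox9-side domain with the centromeric flank was then at 1.28. That scaling reached only to 1800 kb, so these values cover the nearest pairs of each class and not the classes as wholes. The other alternatives gave 1.06 to 1.12 for the former class and 1.09 to 1.15 for the latter.

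Another genotype gave a measure of how far 2 libraries with the boundary differ. Dup-S carries a duplication, seen here as 420 kb of raised contact sums from 111750001 to 112170000, inside the Sox9-side domain. With that stretch left out, the fold of Dup-S over WT between the domains was 1.05 (1.05 to 1.06), and that of deltaBor over WT on the same pairs was 1.62. Of 1326 blocks in Dup-S, 0.151% reached 1.5. Over the 121 blocks between the domains, Dup-S folds ran from 0.910 to 1.20 (0 at or above 1.5) and deltaBor folds from 1.20 to 2.92 (49 at or above 1.5, against 3.85% of all its blocks without that stretch). The inner strips with blocks of their own domain had median folds of 1.12 on the Kcnj side and 1.01 on the Sox9 side in Dup-S. In deltaBor these were 0.850 and 0.760. The 1.12 was not particular to the strip. All contacts within the Kcnj-side domain had a fold of 1.12 in Dup-S, and the median of all its blocks was 1.08. Within the Kcnj-side domain the fold of deltaBor was 1.03, a smaller departure from 1 than that of Dup-S. Both comparisons use the same WT library. In classes that involve a flank, Dup-S folds ran up to 1.15, for the centromeric flank with the Kcnj-side domain, and included 1.12 between the flanks. With the main scaling, the flank folds of deltaBor above were of similar size but not all in the same direction. The centromeric flank with the Kcnj-side domain was at 0.941 in deltaBor. Without the Dup-S stretch, the Sox9-side domain with the telomeric flank was at 1.03 in Dup-S and 0.946 in deltaBor. The other classes that joined a flank to another region were above 1 in both. Dup-S is a mutant and not a replicate of WT, so this gives no error for WT.

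Dup-LdeltaBor combines, per its label, the deletion of this boundary with the Dup-L duplication, and its bins at the boundary were not examined here. In Dup-L the duplication was seen as 1560 kb of raised contact sums from 110960001 to 112520000, across the boundary. Outside that stretch, contacts between the domains had a fold of 0.732 (0.720 to 0.745) in Dup-LdeltaBor over Dup-L. On the same bin pairs, the fold of deltaBor over WT was 1.40 (1.39 to 1.42). The duplicated stretch lies between the bins of these pairs. Where its copies lie in tandem, the bins are further apart in both Dup-L genotypes than in WT and deltaBor. The pairs thus match in reference position and not in distance, and the 2 folds are not like for like. Of 780 blocks in Dup-LdeltaBor over Dup-L, 0 reached 1.5 (0%) and 11 were at or below 1/1.5 (1.41%). Of 780 blocks in deltaBor over WT without that stretch, 3 reached 1.5 (0.385%) and 0 were at or below 1/1.5. Folds of Dup-LdeltaBor over Dup-L were also below 1 in the other long-range classes, at 0.760 for the centromeric flank with the Sox9-side domain, 0.781 for the Kcnj-side domain with the telomeric flank and 0.849 between the flanks. The comparisons share no library, and the difference between them was not tested because each rests on 1 library a genotype.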

How the data were processed

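Per the submitters' processing notes, alignment used Bowtie2 2.2.6 and mm9. A mapping quality of 30 and 10 kb bins are read from the names of the maps. Pair filters, removal of duplicates and the balancing tool were not given in these sources, and counting intervals are too narrow if duplicates remained. The main values are raw contact counts per pair of bins, deposited by the authors for each library. The deposited signal maps after KR (Knight-Ruiz) balancing served as a check. The deposited comparison maps and Dup-C were not used here.

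From the counts, folds, shares, distance bands, blocks, insulation and directionality were computed with Python 3.11.15, numpy 2.4.6 and scipy 1.17.1, and figures with matplotlib 3.10.9. Pairs under 2 bins apart and the 3 left-out bins did not enter. The scaling pairs lay within 1 flank, so it assumes that the flanks themselves did not change. Dup-S positions are offsets, placed on the same bins, where log bin sums correlated with those of WT at 0.963 (at most 0.577 at shifts of 1 to 3 bins). Named blocks were the 5 with the largest fold gain, the 5 with the largest gain in contacts and the 5 with the largest fold loss among those with at least 50 contacts in both libraries. The code was tested on simulated data. The regions, the stretches duplicated in Dup-S and Dup-L and the measures were chosen with earlier results of these data known. Alternatives covered the map, the scaling, the distances, the left-out bins, the blocks and the windows.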

Additional observations from a re-analysis of the deposited data

How the results depend on the processing

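None of the 6 main measures changed direction under the alternatives run. The fold between the domains, 1.60, was 1.51 in the KR-normalised maps and 1.55 scaled to all contacts at least 2 bins apart. Scaled for each distance band it was 1.69. That scaling reached only to 1800 kb and left 121 of the 176 blocks between the domains, so this value is not for the same pairs. Scaled on the centromeric or telomeric flank alone the fold was 1.57 and 1.62, and for pairs at least 10 bins apart 1.61. It was 1.66 with the Sox9-side domain ended at the shallower minimum at 112650001, and 1.52 without the Sox9-side inner strip and 1.53 without both inner strips, alternatives chosen after seeing the data. The share difference, 5.48 points, was 5.72 (KR), 7.56 (10 bins apart), 5.91 (shallower minimum) and 5.17 (7 bins left out). The closed part of the gap, 33.6%, was 39.0% (KR), 30.5% (distance shortened), 35.6% (50 kb bands), 38.2% against the Kcnj-side domain alone and 30.8% against the Sox9-side domain alone. The 83 blocks at or above 1.5 became 363 of 736 with 50 kb blocks, where 418 of all 5948 blocks (7.03%) reached it. They were 169 of 176 at the lower threshold tried, which 226 of all 1596 blocks (14.2%) reached. At a threshold of 2 they were 13 of 176, and 13 of all 1596 blocks (0.815%) reached it. They were 58 of 176 in the KR-normalised maps, where 59 of all 1596 blocks (3.70%) reached 1.5. Losses of the matching size among all blocks numbered 31, 35, 0 and 3, in the same order. The insulation difference, 1.03, was 0.97 (KR), 1.32 (200 kb) and 1.21 (300 kb), and the change of the directionality step, -0.63, was -0.49 with 200 kb windows, where the deltaBor step itself turned to -0.200. Within-domain folds crossed 1. They went down to 0.946 on the Kcnj side (KR and scaling to all contacts at least 2 bins apart). On the Sox9 side they went down to 0.972 (those and the centromeric flank). No named block crossed 1 under any alternative run. No paired analysis was possible because each genotype has 1 library and no test was run. Leaving out a library was not possible for the same reason. Depth limits thin blocks: the interval of the named block with 183 and 104 contacts ran from 0.550 to 0.904.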
